A study of Rattus norvegicus with 60 samples.

Results

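Voltage-gated sodium channels are built from a pore-forming alpha subunit and smaller beta subunits, and 8 rat genes of this family were chosen by name: the alpha subunit genes Scn1a, Scn2a, Scn3a, Scn8a and Scn9a and the beta subunit genes Scn2b, Scn3b and Scn4b. A gene was measured through the probe sets that the array annotation gives to it alone. Of the 8 genes, 7 were measured, out of 14324 genes in all. Scn3a had 2 probe sets, which were averaged, and the other 6 genes had 1 each. Scn9a had none of its own, because the probe set that names it also names Scn3a, and no value is given for it.

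The RNA came from the 5-mm lesion segment of the spinal cord of 60 female Long Evans rats, 8 or 9 weeks old, each rat giving 1 array and every combination of group and time holding 2 rats. In SCI-MP the thoracic cord was bruised by a falling weight after the vertebral arch was removed, and the rat was given methylprednisolone (MP), a synthetic glucocorticoid, at 30 mg/kg in 70% ethanol. SCI-EtOH had the same injury with the 70% ethanol alone, S-MP had the MP in ethanol and a sham procedure, and S-EtOH had the ethanol and a sham procedure, so every rat was given ethanol. Cords were taken at 7 times after the medication in all 4 groups, namely 2 and 4 h, 6 and 8 h, 12 h, and finally 24 and 48 h, and also at 0 h in SCI-EtOH and S-EtOH. Injury was thus set against sham at the same time and with the same medication, and comparisons that use the same group share its arrays. The deposited values are log2 values centred near 0 for each probe set. A value therefore says how high a gene was in one array relative to the others, and levels cannot be set side by side between genes.

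The alpha subunit opens when the membrane is depolarised and carries the sodium current that starts and propagates the action potential. The channels are gathered at the axon initial segment and at the nodes of Ranvier, the gaps between stretches of myelin, where they are held by an ankyrin and spectrin scaffold. Scn1a encodes Nav1.1, found in inhibitory interneurons and motor neurons. Scn8a encodes Nav1.6, the main channel of mature nodes, and Scn2a encodes Nav1.2, which is found at immature nodes and on unmyelinated axons. Scn3a encodes Nav1.3, which is prominent in the embryonic nervous system, and Scn9a encodes Nav1.7, known from sensory and sympathetic neurons. The beta subunits are membrane proteins with an immunoglobulin fold that change the gating and the surface density of the alpha subunit. The products of Scn2b and Scn4b are joined to it by a disulphide bond and that of Scn3b is not. The product of Scn4b is also known for its part in resurgent current in fast-firing neurons, studied mainly in the cerebellum.

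The family lies in clusters in the rat genome. On the GRCr8 assembly of RefSeq, Scn3a (chr3:70554496-70666198), Scn2a (chr3:70710862-70845569), Scn1a (chr3:71360840-71479870) and Scn9a (chr3:71553185-71701377) follow each other on chromosome 3. Scn2b (chr8:54322383-54334519) and Scn4b (chr8:54343873-54359046) are neighbours on chromosome 8, Scn3b (chr8:49527529-49550019) lies apart from them on the same chromosome, and Scn8a is on chromosome 7 (chr7:133860901-134034809). The sources used here do not name the build of the array's own coordinates, so none are printed. RefSeq promoter windows of 300 bases, from 250 bases before to 50 bases after a transcript start, were found for 5 of the 7 measured genes and are shown because these genes moved together after injury by unequal amounts. They are ordered by the size of that change without MP, the largest first, with CG dinucleotides in capitals and every sequence running 5′ to 3′ on the gene's strand.
Scn4b: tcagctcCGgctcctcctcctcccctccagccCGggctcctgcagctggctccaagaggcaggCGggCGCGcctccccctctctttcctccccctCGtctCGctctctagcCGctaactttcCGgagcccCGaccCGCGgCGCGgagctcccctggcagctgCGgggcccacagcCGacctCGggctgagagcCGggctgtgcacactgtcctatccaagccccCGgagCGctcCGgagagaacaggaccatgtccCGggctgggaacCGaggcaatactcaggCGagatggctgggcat
Scn8a: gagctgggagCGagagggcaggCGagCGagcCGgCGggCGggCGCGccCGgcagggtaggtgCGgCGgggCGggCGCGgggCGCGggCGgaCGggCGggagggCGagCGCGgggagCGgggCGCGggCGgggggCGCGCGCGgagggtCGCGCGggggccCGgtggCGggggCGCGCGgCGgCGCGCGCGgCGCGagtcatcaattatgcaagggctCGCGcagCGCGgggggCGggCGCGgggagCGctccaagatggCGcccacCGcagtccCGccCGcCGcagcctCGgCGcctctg
Scn2b: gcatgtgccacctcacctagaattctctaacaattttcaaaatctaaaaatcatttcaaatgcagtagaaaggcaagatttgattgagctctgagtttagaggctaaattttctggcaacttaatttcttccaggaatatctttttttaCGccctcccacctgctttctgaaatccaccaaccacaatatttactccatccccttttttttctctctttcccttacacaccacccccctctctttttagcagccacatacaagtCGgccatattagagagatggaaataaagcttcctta
Scn2a: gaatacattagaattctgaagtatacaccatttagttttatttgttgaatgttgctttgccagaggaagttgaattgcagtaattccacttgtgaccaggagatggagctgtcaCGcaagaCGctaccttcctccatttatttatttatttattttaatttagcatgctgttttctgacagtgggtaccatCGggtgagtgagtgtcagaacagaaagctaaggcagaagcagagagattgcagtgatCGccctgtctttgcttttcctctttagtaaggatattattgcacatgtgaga
Scn3a: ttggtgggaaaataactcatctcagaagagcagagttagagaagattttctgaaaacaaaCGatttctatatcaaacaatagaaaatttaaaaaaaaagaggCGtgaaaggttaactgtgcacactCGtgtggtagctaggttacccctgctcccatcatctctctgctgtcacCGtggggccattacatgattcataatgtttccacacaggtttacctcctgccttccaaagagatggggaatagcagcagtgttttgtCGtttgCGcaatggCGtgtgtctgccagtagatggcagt
The windows lie at chr7:133860977-133861276 on the plus strand for Scn8a, chr8:54343623-54343922 on the plus strand for Scn4b, chr8:54322133-54322432 on the plus strand for Scn2b, chr3:70710706-70711005 on the plus strand for Scn2a and chr3:70666149-70666448 on the minus strand for Scn3a. The Scn8a window is 84.7% G and C with 60 CG dinucleotides, and 99.9% of the 33469 rat windows have a lower share of G and C. The Scn4b window is 70.0% G and C with 24 CG dinucleotides. The windows of Scn2b, Scn2a and Scn3a hold 39.0%, 39.3% and 43.3% G and C, against a median of 51.7% over all windows. They hold 2, 4 and 7 CG dinucleotides, against a median of 7, which the Scn3a window equals. A GC box (GGGCGG on either strand) was found in the Scn8a window alone and is present in 33.1% of all windows. The TATA box motif (TATAAA on either strand) was in none of the 5 and is in 14.2% of all windows. These are descriptions of the letters in the windows, and no binding was measured.

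The arrays were of uneven quality. Array medians lay between -0.03 and 0.11, and the correlation of duplicates over all probe sets was between 0.161 and 0.903. The lowest of these belonged to SCI-EtOH at 6 h, where the duplicates stand apart from each other and had the smallest weights when arrays were weighted, so the main results that use them are also given without them. The values spread more within injured arrays (median SD over probe sets 0.341 in SCI-MP and 0.377 in SCI-EtOH) than within sham arrays (0.192 in S-MP and 0.178 in S-EtOH). The segment is bulk tissue, in which fewer neurons and less RNA per neuron cannot be told apart. Marker lists moved with the injury. Of the 12 neuron markers, 11 were lower in SCI-EtOH than in S-EtOH, with the neurofilament genes Nefm, Nefl and Nefh at -2.70, -2.44 and -2.08. Of the markers of blood cells, 5 of 7 for neutrophils and 3 of 3 for erythrocytes were higher. Of all genes 27.5% were called lower and 35.1% higher in this comparison. Their part in the results below was not tested, apart from the comparison with the neuron markers.

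All 7 measured subunit genes were lower in injured cord without MP over the mean of the 7 times from 2 to 48 h. The fall ran from a ratio of 0.21 for Scn1a to 0.85 for Scn3a. In the same comparison 27.5% of the 14324 genes were called lower at an adjusted p under 0.05, and the median of the 7 subunit genes was -0.998 on the log2 scale against 0.04 for all genes. Without both SCI-EtOH 6 h arrays all 7 were still called, from -2.43 for Scn1a to -0.28 for Scn3a (adjusted p = 0.0012).

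Among the alpha subunits, Scn1a fell the most. Its lowest, median and highest values were -3.40, -2.10 and -0.59 in the 14 SCI-EtOH arrays after 0 h, against 0.04, 0.20 and 0.43 in the 14 S-EtOH arrays. Every injured array lay below every sham array. The log2 difference was -2.26 ± 0.12 (SE) with an adjusted p of 2.7e-17. Scn8a, the channel of mature nodes, had -2.35, -1.63 and -0.70 in SCI-EtOH, against 0.20, 0.37 and 0.58 in S-EtOH. Its groups did not overlap either, and the difference was -1.90 ± 0.08 (SE, adjusted p = 2.1e-19).

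Scn2a and Scn3a moved less. Scn2a had -1.46, -0.77 and 0.06 in SCI-EtOH, against -0.18, 0.03 and 0.29 in S-EtOH, and 10 of the 14 injured arrays lay below the lowest sham array. The difference was -0.67 ± 0.09 (SE, adjusted p = 1.5e-07). Scn3a, the embryonic form, had -0.96, -0.28 and 0.29 in SCI-EtOH, against -0.13, -0.06 and 0.18 in S-EtOH, so the injured arrays reached both below and above the sham range. Its difference was -0.24 ± 0.07 (SE, adjusted p = 0.0049). This call was lost without the 24 h arrays (-0.11, adjusted p = 0.22), under quantile normalisation (-0.065, adjusted p = 0.31) and with the more variable of its probe sets alone (-0.15, adjusted p = 0.13). The 2 Scn3a probe sets gave differences of -0.33 and -0.15 and correlated at r = 0.814 over the 60 arrays.

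Among the beta subunits, Scn4b fell about as far as Scn1a. It had -3.08, -1.78 and -0.38 in SCI-EtOH, against 0.13, 0.37 and 0.58 in S-EtOH, with no overlap, and the difference was -2.11 ± 0.10 (SE, adjusted p = 7.7e-18). Scn2b, its neighbour on chromosome 8, had -1.90, -0.75 and -0.14 in SCI-EtOH, against -0.13, 0.13 and 0.37 in S-EtOH. The groups were apart by a narrow margin, since the highest injured array was at -0.138 and the lowest sham array at -0.129, and the difference was -0.998 ± 0.084 (SE, adjusted p = 2.4e-12). Scn3b had -1.05, -0.47 and -0.04 in SCI-EtOH, against -0.39, 0.06 and 0.31 in S-EtOH. For Scn3b, 9 of the 14 injured arrays lay below the lowest sham array, and the difference was -0.55 ± 0.07 (SE, adjusted p = 1.5e-08). All injured arrays below all sham arrays was thus seen for Scn1a, Scn8a, Scn2b and Scn4b, and for 3.55% of all genes.

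**Figure D1:**
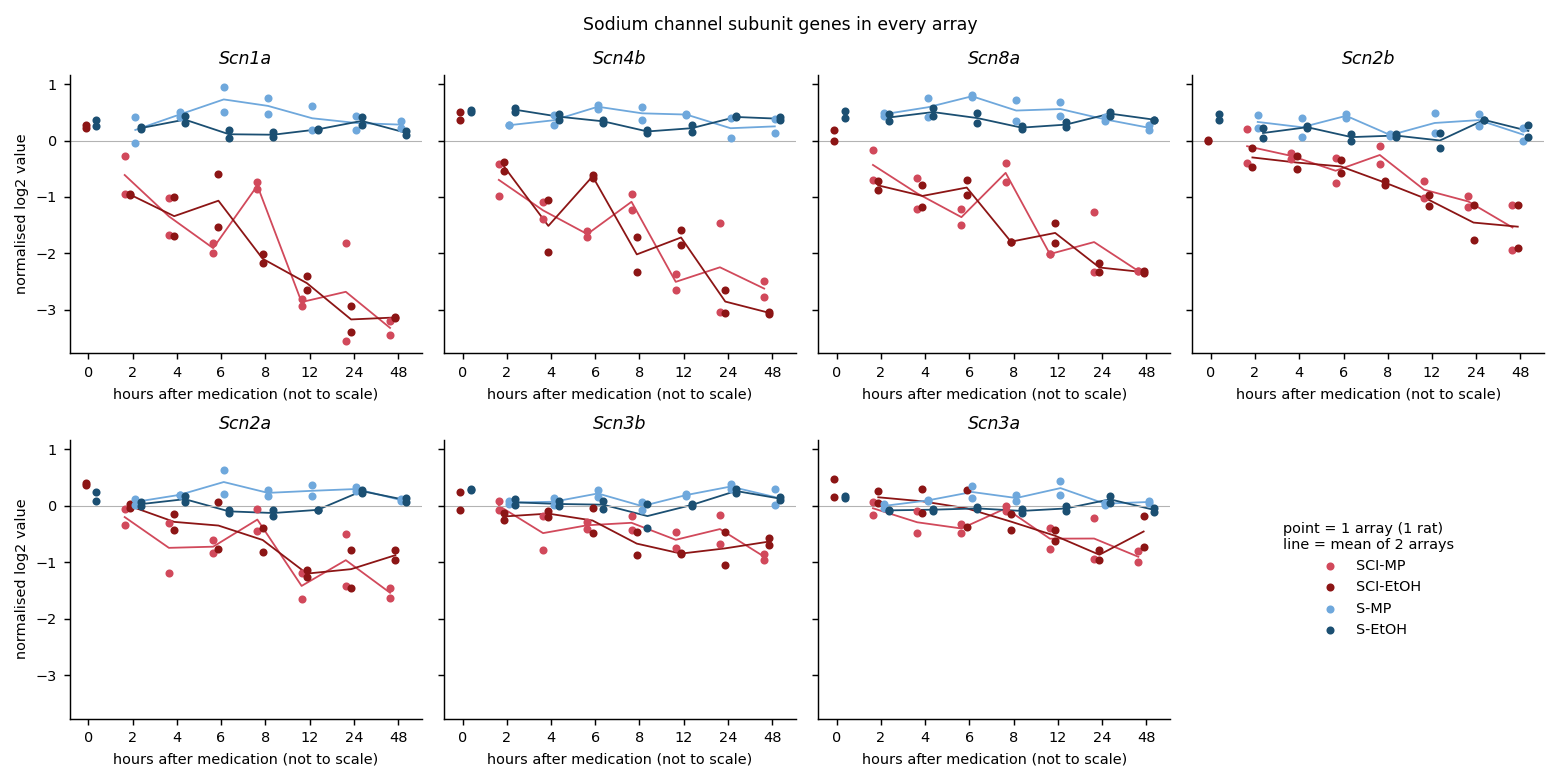
Normalised log2 values of the 7 measured subunit genes in every array (1 point per array) against hours after medication, with lines through the mean of the 2 arrays of SCI-MP, SCI-EtOH, S-MP and S-EtOH; 0 h was measured only in SCI-EtOH and S-EtOH. The injured arrays of Scn1a, Scn8a and Scn4b lie below every sham array from 2 h on, while those of Scn3a overlap the sham arrays.

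The sizes of the measured fall formed steps. The values hold no brightness, so whether the probe sets of different genes respond alike could not be examined. The difference between neighbouring genes in the order was tested by exact permutation of the injured and sham labels within each time (279936 splits, two-sided, smallest possible p 7.1e-06), with p-values adjusted over the 6 neighbouring pairs. Without MP the first neighbouring pairs were not told apart, and Scn1a was not tested against Scn8a. Scn1a fell by 0.15 more than Scn4b (adjusted p = 0.18), and Scn4b by 0.21 more than Scn8a (adjusted p = 0.094). The step from Scn8a to Scn2b was -0.90 (exact adjusted p = 4.3e-05, at the smallest p the splits allow). Scn2b fell by 0.33 more than Scn2a, and Scn3b by 0.31 more than Scn3a (exact adjusted p = 0.0019 for both). Scn2a and Scn3b differed by 0.12 (exact adjusted p = 0.18).

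With MP the largest step again lay below Scn1a, Scn4b and Scn8a. Scn8a and the next gene, Scn2a, differed by -0.79 (exact adjusted p = 4.3e-05), Scn2b and Scn3b by -0.35 (exact adjusted p = 0.0032), Scn4b and Scn8a by -0.25 (exact adjusted p = 0.0023), and Scn1a and Scn4b by -0.26 (exact adjusted p = 0.020). Scn2a and Scn2b differed by -0.13 and Scn3b and Scn3a by -0.05, both with an exact adjusted p of 0.28. The order was chosen on the same arrays, and the injured arrays spread more than the sham arrays. The p-values are therefore a description of the steps and no independent test of the order.

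**Figure D2:**
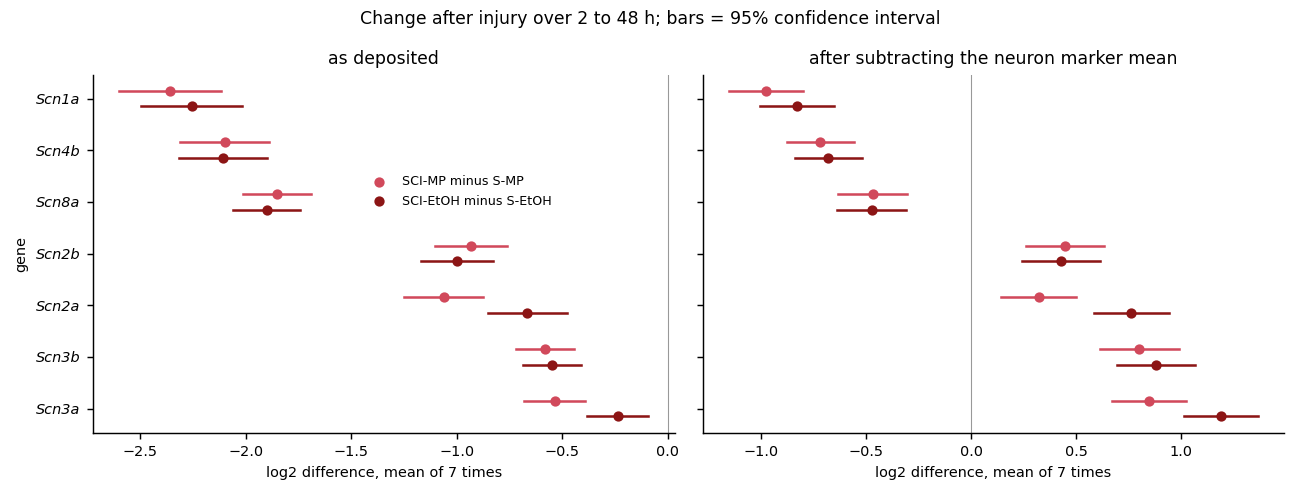
Log2 difference of injured from sham cord over the mean of 7 times for each subunit gene (points) with its 95% confidence interval (bars), with MP above and without MP below in each pair, as deposited (left) and after the mean of the 12 neuron markers was subtracted from each array (right). Scn1a, Scn4b and Scn8a lie at -2.36 to -1.85 on the left and stay below 0 on the right, where the other 4 genes lie above 0.

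The genes that fell most were also the first to be called. Their ranking is by the mean over 2 to 48 h, which holds the early values, so this is not a separate result on timing. At 0 h no subunit gene was called between SCI-EtOH and S-EtOH by limma (0 of 7, also at an unadjusted p under 0.05, against 0.0419% of all genes called in either direction). The median of the 7 genes was -0.10. Scn2b was at -0.42 at 0 h, near its -0.43 at 2 h, and a limma fit of 0 h alone called it (adjusted p = 0.037). With 2 arrays per group, equal levels at 0 h are not shown. At 2 h Scn1a (-1.18), Scn8a (-1.20) and Scn4b (-1.01) were already lower, where 2.79% of all genes were called lower, and the same 3 genes were called at 4 h (9.04% of all genes) and at 6 h (5.28%). At 2 h the calls of Scn1a and Scn4b were lost when any of the 4 arrays was left out (adjusted p 0.094 to 0.15 and 0.097 to 0.17), and that of Scn8a was not. At 6 h the calls of Scn1a and Scn4b were lost without either S-EtOH array or SCI-EtOH replicate 1 of that time (adjusted p 0.077 to 0.29 and 0.088 to 0.12), and with array weights all 3 were lost (adjusted p 0.44 to 0.60).

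Scn2b and Scn3b were first called at 8 h (-0.84 and -0.49, 12.6% of all genes called lower). The Scn3b call was lost without S-EtOH replicate 1 or SCI-EtOH replicate 2 of that time (-0.28 in both fits). Scn2b had both injured arrays below both sham arrays at all 7 times. At 4 h it was at -0.63 (limma, adjusted p = 0.051). It was called there under quantile normalisation (-0.72, adjusted p = 0.0069), with array medians at 0 (-0.65, adjusted p = 0.046) and with array weights (adjusted p = 0.038). All 7 were called lower at 12 h (17.3%) and at 24 h (18.1%), and all but Scn3a at 48 h (16.5%). The 12 h call of Scn3a was at the threshold (-0.48, adjusted p = 0.049) and was lost under quantile normalisation (-0.23, adjusted p = 0.25), with its more variable probe set (adjusted p = 0.11) and without any of the 4 arrays of that time (adjusted p 0.055 to 0.27). At 48 h Scn3a was called without SCI-EtOH replicate 2 (-0.66, adjusted p = 0.022). At 24 h Scn1a was at -3.40 and -2.94 in SCI-EtOH, against 0.42 and 0.27 in S-EtOH, a difference of -3.52 ± 0.31 (SE). Scn4b was at -3.03 and -3.08 at 48 h in SCI-EtOH, against 0.42 and 0.36 in S-EtOH, a difference of -3.44 ± 0.27 (SE). Over the 7 times, 34 of 49 gene and time pairs were called lower, against 11.7% of all such pairs.

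The change of the injury difference over time was tested as well. The difference at 24 and 48 h minus that at 2, 4 and 6 h was negative and called for all 7 genes (14.8% of all genes called lower). It was -2.05 ± 0.25 for Scn4b, -2.04 ± 0.28 for Scn1a, -1.41 ± 0.19 for Scn8a, -1.23 ± 0.20 for Scn2b, -0.95 ± 0.22 for Scn2a, -0.81 ± 0.17 for Scn3a and -0.65 ± 0.16 for Scn3b (SE). Under quantile normalisation the values were smaller, with Scn8a no longer called (-0.38, adjusted p = 0.21), and the other 6 genes were called at -1.01 (Scn1a) to -0.43 (Scn3b), with Scn4b at -0.78 and Scn2b at -0.58. Without both SCI-EtOH 6 h arrays all 7 were called, at -1.95 (Scn1a) to -0.68 (Scn3b). In the S-EtOH arrays none of the 7 varied over the 8 times by limma's F test (0 also at an unadjusted p under 0.05, 1.65% of all genes called).

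**Figure D3:**
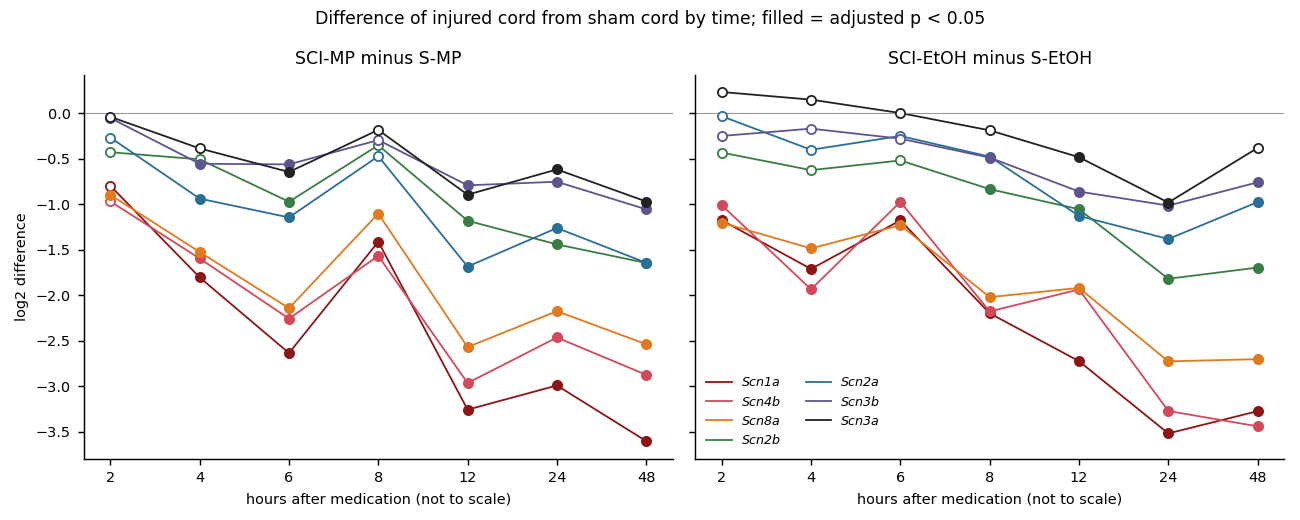
Log2 difference of injured from sham cord at each time after medication for the 7 subunit genes, with MP (SCI-MP minus S-MP, left) and without MP (SCI-EtOH minus S-EtOH, right); filled points are called at an adjusted p under 0.05 over all genes. Without MP the called points number 3 at 2 h and 7 at 24 h, and the curve of Scn1a reaches -3.52 at 24 h.

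In MP-treated rats the injury gave a fall of the same 7 genes over the mean of 7 times (SCI-MP against S-MP), where 33.3% of all genes were called lower. Scn1a had lowest, median and highest values of -3.54, -1.81 and -0.28 in SCI-MP, against -0.04, 0.42 and 0.95 in S-MP, a difference of -2.36 ± 0.12 (SE). Scn4b had -3.03, -1.53 and -0.42 in SCI-MP, against 0.04, 0.38 and 0.63 in S-MP (-2.10 ± 0.10). Scn8a had -2.34, -1.24 and -0.17 in SCI-MP, against 0.18, 0.44 and 0.80 in S-MP (-1.85 ± 0.08). These 3 genes again showed no overlap of injured and sham arrays.

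Scn2a had -1.65, -0.72 and -0.05 in SCI-MP, against 0.01, 0.20 and 0.63 in S-MP, with no overlap and a difference of -1.06 ± 0.09 (SE). Scn2b (-0.93 ± 0.08), Scn3b (-0.58 ± 0.07) and Scn3a (-0.54 ± 0.07) were lower too, with 13, 13 and 12 of the 14 injured arrays below the lowest sham array. All injured arrays lay below all sham arrays for 5.12% of all genes. Over the 7 adjusted p-values the largest was 7.1e-08, that of Scn3a.

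By single times the calls were less regular than without MP. Only Scn8a was called at 2 h (-0.90, adjusted p = 0.020, 1.37% of all genes called lower), and this call was lost without either S-MP array or SCI-MP replicate 2 of that time (adjusted p 0.069 to 0.51). At 4 h all genes but Scn2b and Scn3a were lower (14.2% of all genes). Without SCI-MP replicate 1 of that time Scn2a (-0.50, adjusted p = 0.42) and Scn3b (-0.25, adjusted p = 0.67) were not called, without S-MP replicate 1 neither was (adjusted p = 0.053 and 0.083), and without S-MP replicate 2 Scn3b was not (adjusted p = 0.17). All 7 were lower at 6 h (23.6%), at 12 h (21.7%), at 24 h (15.3%) and at 48 h (18.0%), but only Scn1a, Scn8a and Scn4b at 8 h (11.7%). The 6 h calls of Scn3a and Scn3b were lost without S-MP or SCI-MP replicate 2 of that time (adjusted p 0.094 to 0.11). At 24 h, without SCI-MP replicate 1, Scn3a was at -0.25 (adjusted p = 0.52) and Scn3b at -0.50 (adjusted p = 0.11), and Scn3a was also lost without either S-MP array (adjusted p = 0.051 and 0.079). With S-EtOH in place of S-MP the 6 h calls of Scn2a, Scn3a, Scn2b and Scn3b were lost (adjusted p 0.058 to 0.21), and so was the 8 h call of Scn1a (-0.90, adjusted p = 0.063). At 24 h the SCI-MP duplicates lay far apart, at -3.54 and -1.82 for Scn1a, at -2.34 and -1.26 for Scn8a and at -3.03 and -1.46 for Scn4b. The neuron markers were apart in the same direction in these arrays, with means of -2.23 and -0.995. In all, 37 of 49 gene and time pairs were called lower, against 15.1% of all such pairs.

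Late minus early, 6 of the 7 genes were lower with MP (8.87% of all genes): Scn1a by -1.55 ± 0.28, Scn4b by -1.06 ± 0.25, Scn2b by -0.91 ± 0.20, Scn8a by -0.83 ± 0.19, Scn2a by -0.67 ± 0.22 and Scn3b by -0.51 ± 0.16 (SE). Scn3a was at -0.44 ± 0.17 with an adjusted p of 0.062. The call of Scn2a was lost without SCI-MP 4 h replicate 2, SCI-MP 24 h replicate 1, SCI-MP 48 h replicate 1 or S-MP 6 h replicate 1 (adjusted p 0.054 to 0.17), and that of Scn3b without SCI-MP 4 h replicate 2, SCI-MP 24 h replicate 1 or S-MP 48 h replicate 1 (adjusted p 0.053 to 0.11). Under quantile normalisation only Scn3b kept its call, and Scn8a and Scn4b turned to 0.20 and 0.091.

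The subunit genes were then set against the mean of 12 neuron markers, which stands for these markers and not for all neuronal RNA. The mean of the 12 neuron markers was -2.23, -1.08 and -0.17 (lowest, median, highest) in SCI-MP, against 0.05, 0.26 and 0.48 in S-MP. It was -2.04, -1.19 and -0.21 in SCI-EtOH, against 0.06, 0.28 and 0.40 in S-EtOH. Subtracting this mean from every gene of an array moved the median of all genes to 1.39 with MP and 1.46 without MP, so only the few genes that fell as far as the neuron markers or further can be negative.

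Relative to the neuron markers, 3 subunit genes were lower with MP, Scn1a at -0.98 ± 0.09, Scn4b at -0.72 ± 0.08 and Scn8a at -0.47 ± 0.08 (SE), where 0.377% of all genes were called lower. Without MP the same 3 genes were lower, Scn1a at -0.83 ± 0.09, Scn4b at -0.68 ± 0.08 and Scn8a at -0.47 ± 0.08, where 0.286% of all genes were called lower. The other 4 were higher on this scale, as were 98.8% of all genes with MP and 99.2% without MP. Scn2b was at 0.45 with MP and 0.43 without MP, Scn2a at 0.32 and 0.76, Scn3b at 0.80 and 0.88 and Scn3a at 0.85 and 1.19 in the same order, each with an SE of 0.09. Synaptic vesicle markers in place of the neuron markers left these calls as they were. Since Scn1a, Scn4b and Scn8a lead the order of the fall on the same arrays, their place below the neuron marker mean is not a separate measurement of that order. It is not a place below every marker either. Without MP the neurofilament genes Nefm and Nefl fell further than any subunit gene.

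MP was compared with ethanol within injured cord. This sets SCI-MP beside SCI-EtOH without the sham groups. A change of the fall itself is tested by the interaction, given further below. Over the mean of 7 times none of the 7 genes was called by limma, while 42.1% of all genes were called in either direction, and 3 of the 7 passed an unadjusted p under 0.05. The differences of SCI-MP from SCI-EtOH lay between -0.20 for Scn2a (95% confidence interval -0.39 to -0.01, adjusted p = 0.080) and 0.18 for Scn2b (0.01 to 0.35, adjusted p = 0.079), with Scn8a at 0.17 (0.01 to 0.33, adjusted p = 0.076). Scn1a was at 0.11 (-0.13 to 0.35) and Scn4b at 0.03 (-0.18 to 0.24), Scn3b at 0.06 (-0.07 to 0.20) and Scn3a at -0.13 (-0.27 to 0.02). Without both SCI-EtOH 6 h arrays Scn8a (0.29, adjusted p = 0.0067) and Scn2b (0.23, adjusted p = 0.047) were called higher. Other choices called genes lower: Scn2a and Scn3a without SCI-EtOH 6 h replicate 1 (-0.26, adjusted p = 0.018, and -0.18, adjusted p = 0.036), without SCI-MP 24 h replicate 2 (-0.27, adjusted p = 0.013, and -0.18, adjusted p = 0.028), without the 8 h arrays (-0.29, adjusted p = 0.018, and -0.19, adjusted p = 0.049) and without the 24 h arrays (-0.26, adjusted p = 0.038, and -0.20, adjusted p = 0.041). Without SCI-MP 24 h replicate 1, Scn1a (0.23, adjusted p = 0.040) and Scn8a (0.25, adjusted p = 0.0021) were called higher.

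At single times 5 of 49 gene and time pairs were called, against 7.10% of all such pairs in either direction. The largest cluster was at 8 h. Scn1a was at -0.73 and -0.87 in SCI-MP, against -2.17 and -2.02 in SCI-EtOH, a difference of 1.30 ± 0.31 (SE, adjusted p = 0.0084). Scn8a was at -0.40 and -0.74 in SCI-MP, against -1.80 and -1.79 in SCI-EtOH (1.22 ± 0.21, adjusted p = 0.00018). Scn4b was at -0.94 and -1.23 in SCI-MP, against -2.33 and -1.70 in SCI-EtOH (0.93 ± 0.27, adjusted p = 0.033). Both SCI-MP arrays lay above both SCI-EtOH arrays for each of these genes, and 2.11% of all genes were called higher at 8 h.

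Marker lists moved with the 8 h difference. The neuron marker mean was -0.34 and -0.55 in SCI-MP at 8 h, against -1.47 and -1.12 in SCI-EtOH, and the neutrophil marker mean was 0.56 and 0.47, against 1.92 and 1.70. The SD over all probe sets was 0.246 and 0.261 in the SCI-MP arrays and 0.369 to 0.434 in the SCI-EtOH arrays of that time. The part of these in the result was not tested. Under quantile normalisation, which gives every array the same spread, Scn1a was at 0.64 (adjusted p = 0.22), Scn8a at 0.74 (adjusted p = 0.054) and Scn4b at -0.087 (adjusted p = 0.92). The call of Scn1a was also lost without SCI-EtOH 8 h replicate 1 (1.22, adjusted p = 0.059) or SCI-MP 8 h replicate 1 (1.23, adjusted p = 0.099). That of Scn4b was lost without SCI-EtOH 8 h replicate 1 (0.62, adjusted p = 0.29), SCI-MP 8 h replicate 1 (0.79, adjusted p = 0.26) or SCI-MP 8 h replicate 2 (1.08, adjusted p = 0.072). That of Scn8a was kept whichever single array was left out.

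Scn4b was lower in SCI-MP than in SCI-EtOH at 6 and 12 h. At 6 h it was at -1.60 and -1.72 in SCI-MP, against -0.61 and -0.66 in SCI-EtOH, a difference of -1.02 ± 0.27 (SE, adjusted p = 0.013), where 9.50% of all genes were called lower. The SCI-EtOH arrays of this time are the pair with the lowest correlation, and the call was lost when arrays were weighted (adjusted p = 0.79) and without SCI-MP 6 h replicate 2 (-0.96, adjusted p = 0.12). At 12 h it was at -2.37 and -2.64 in SCI-MP, against -1.85 and -1.58 in SCI-EtOH (-0.79 ± 0.27, adjusted p = 0.045, 9.18% of all genes called lower). Without any one of the 4 arrays of that time the adjusted p was 0.053 to 0.27, and with array medians at 0 it was 0.056. The neuron marker mean was lower in the same arrays, at -1.16 and -1.25 in SCI-MP, against -0.62 and -0.36 in SCI-EtOH at 6 h, and at -1.56 and -1.77 in SCI-MP, against -1.19 and -1.39 in SCI-EtOH at 12 h, and its part in the result was not tested.

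No call remained among the 49 pairs once the 0 h difference of SCI-EtOH from S-EtOH was added to the comparison, although most values stayed near their size. That difference holds no MP arrays, and adding it brings in the spread of the 0 h arrays. The loss therefore cannot decide whether the calls hold. With the 0 h difference added, Scn1a was at 1.24 (adjusted p = 0.27), Scn8a at 0.85 (adjusted p = 0.24) and Scn4b at 0.83 (adjusted p = 0.48) at 8 h. Scn4b was at -1.12 (adjusted p = 0.17) at 6 h and -0.88 (adjusted p = 0.23) at 12 h. At 24 h the values depend on which SCI-MP array is used: without replicate 1, Scn1a (1.36), Scn8a (0.99), Scn4b (1.39) and Scn3a (0.65) were called higher in SCI-MP, and with both arrays none was. Late minus early, no gene was called (0.559% of all genes in either direction, 1 gene at an unadjusted p under 0.05). Scn4b had the largest value, 0.85 ± 0.25 (SE, adjusted p = 0.14), and was called without SCI-MP 24 h replicate 1 (1.24, adjusted p = 0.00039) or SCI-EtOH 4 h replicate 2 (0.999, adjusted p = 0.043).

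**Figure D4:**
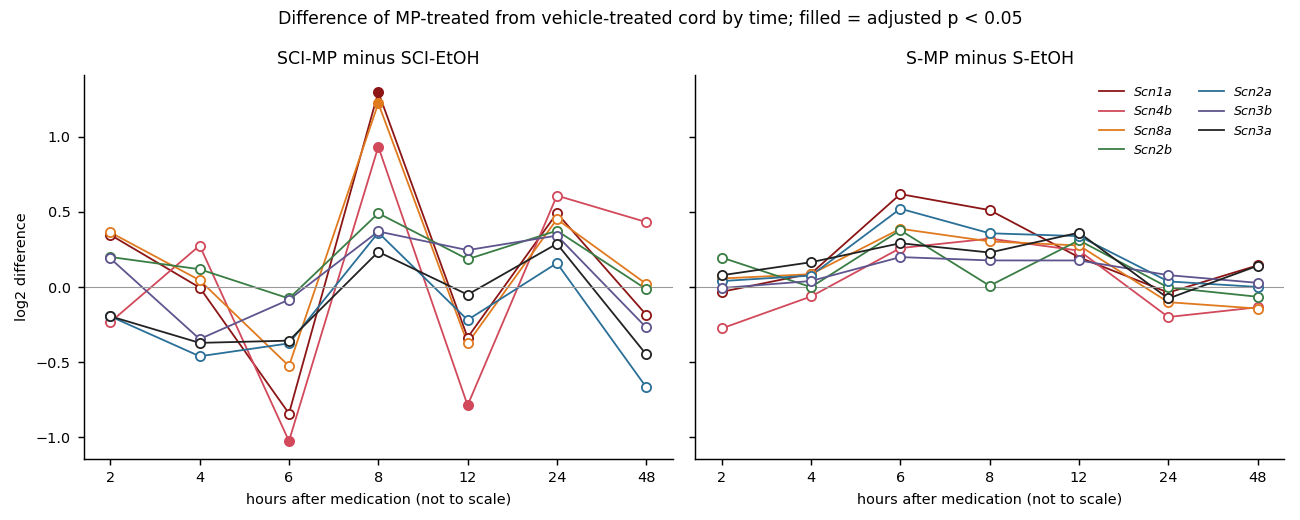
Log2 difference of MP-treated from ethanol-treated cord at each time after medication for the 7 subunit genes, in injured cord (SCI-MP minus SCI-EtOH, left) and in sham cord (S-MP minus S-EtOH, right); filled points are called at an adjusted p under 0.05 over all genes. In injured cord Scn1a, Scn8a and Scn4b are called at 8 h at 0.93 to 1.30 and Scn4b is called below 0 at 6 and 12 h, and in sham cord no point is called.

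In sham cord MP gave no call for any subunit gene by limma, over the mean of 7 times (9.85% of all genes called in either direction, 2 of the 7 at an unadjusted p under 0.05) or at any single time (0.205% of gene and time pairs, 1 of 49 at an unadjusted p under 0.05). All 7 differences of S-MP from S-EtOH over the mean were positive, between 0.02 ± 0.10 for Scn4b and 0.21 ± 0.12 for Scn1a (SE). Scn3a was at 0.17 (95% confidence interval 0.02 to 0.32, adjusted p = 0.13), with both S-MP arrays above both S-EtOH arrays at 6 of 7 times, and Scn2a was at 0.20 (0.01 to 0.38, adjusted p = 0.19). Scn1a, Scn2a and Scn3a were called higher under quantile normalisation (adjusted p = 0.0088, 0.0037 and 0.0018) and with array weights (adjusted p = 0.038, 0.020 and 0.0075).

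Whether the injury acted differently with and without MP was tested by the interaction. It was called for Scn2a, with an injury difference of -1.06 with MP against -0.67 without MP (interaction -0.39 ± 0.13, SE, adjusted p = 0.024), and for Scn3a, with -0.54 with MP against -0.24 without MP (-0.30 ± 0.10, adjusted p = 0.028). In this test 20.2% of all genes were called lower, so 2 of the 7 genes is near the share of all genes. For the other 5 genes the interaction lay between -0.10 for Scn1a (95% confidence interval -0.44 to 0.24) and 0.06 for Scn2b (-0.18 to 0.31). Under quantile normalisation Scn1a was at -0.39 and called (adjusted p = 0.044). Both calls were lost without both SCI-EtOH 6 h arrays (Scn2a -0.31 and Scn3a -0.24, both with an adjusted p of 0.077). They were also lost without the 4, 6, 12 or 48 h arrays (adjusted p 0.051 to 0.11 for Scn2a and 0.065 to 0.12 for Scn3a). That of Scn3a was further lost without SCI-EtOH 4 h replicate 1 (-0.27, adjusted p = 0.053) or SCI-MP 4 h replicate 1 (-0.27, adjusted p = 0.050).

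Of the other genes of the pathway, the partners of the channel were lower after injury over the mean of 7 times and the other alpha subunits were not called. Of the other alpha subunit genes 4 were measured, and none was called over the mean of 7 times with or without MP. At single times 1 of the 4 was called higher after injury with MP at 12 h, where 12.4% of all genes were. At 12 h 2 of the 4 were called higher in SCI-MP than in SCI-EtOH, where 7% of all genes were. They were the muscle channel Scn4a (-0.05 ± 0.05), the glial and sensory channel Scn7a (0.05 ± 0.16), and the sensory neuron channels Scn10a (-0.00 ± 0.05) and Scn11a (0.01 ± 0.05) in SCI-EtOH minus S-EtOH (SE). The 4 intracellular FGF genes, whose products bind the tail of the alpha subunit, were all lower, with a median of -0.95, led by Fgf11 (-1.08 ± 0.06), Fgf14 (-1.07 ± 0.09) and Fgf13 (-0.82 ± 0.10).

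All 8 genes of the initial segment and node were lower, with a median of -0.59. The paranodal Cntnap1 was at -1.21 ± 0.07, the cell adhesion gene Nrcam at -0.86 ± 0.08 and Cntn1, the partner of Cntnap1 at the paranode, at -0.77 ± 0.07 (SE). The sodium leak channel gene Nalcn was at -0.77 ± 0.08. Of 7 genes for kinases and ubiquitin ligases that act on the channels, 3 were lower and 2 higher, among them Prkaca, a catalytic subunit of protein kinase A, at -0.65 ± 0.05, Csnk2a1, of casein kinase II, at -0.33 ± 0.05 and Mapk14, p38, at 0.27 ± 0.05. These lists are described by their counts, beside 27.5% of all genes called lower and 35.1% called higher.

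The profiles of the 7 genes over the 30 means of group and time were alike, with Pearson correlations of 0.847 (Scn3a and Scn8a) to 0.993 (Scn1a and Scn8a). The points share arrays and the common difference between injured and sham cord, and the values are a description. The most similar genes to Scn1a were Cadps, a vesicle priming factor, Serpini1 and the glycine receptor gene Glra1 (r = 0.995 to 0.996). Those of Scn8a were Atcay, Adam23 and Scn1a (0.993 to 0.995), and those of Scn4b were Ina, an intermediate filament gene of neurons, P2rx6 and Caln1 (0.991 to 0.992). For Scn2b they were Smarca2, Dpp10 and the dendritic Map2 (0.981 to 0.984), and for Scn2a Ahi1, Mdga2 and the calcium channel subunit Cacna2d1 (0.977 to 0.978). Scn3b was closest to the potassium channel gene Kcnj3, Ralyl and Ppfia2 (0.949 to 0.950), and Scn3a to the calcium channel gene Cacna1d, the potassium channel gene Kcnj6 and Enpp5 (0.951 to 0.953).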

How the data were processed

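The authors summarised Rat Gene 1.0 ST probe sets by RMA, applied chip-wise and gene-wise normalisation in GeneSpring and deposited log2 values, with a column for each rat. The sources used here do not say what each gene was centred on, and the values hold no brightness, so no filter on dim probe sets was possible. Groups were taken from the sample labels. Probe sets were kept by the methods' rule on duplicates as read here (CV under 50% in at least 16 of 30 pairs on the linear scale: 27338 of 27342). The paper reports far fewer probe sets kept by its rule, so its filter was not reproduced. Probe sets with 1 gene symbol (15097, of which 15067 were matched by gene ID to RefSeq, GRCr8) were averaged per gene. Those with several symbols (323) or none (11922) were left out.

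limma 3.58.1 (R 4.3.3) was fitted to 14324 genes with 1 mean per group and time (60 arrays, 30 means). P-values were Benjamini-Hochberg adjusted over all genes within a comparison and called under 0.05; the methods' own test of the 4 groups is an alternative. The order of the genes was tested by exact permutation over 6 neighbouring pairs, since 7 of the 8 genes were measured. In simulated data for 14324 genes, a log2 change of 0.5 was found for 98 of 100 genes over the mean of 7 times without MP, and for 44 of 100 at 12 h. The simulation gave each gene the same spread in all groups and independent arrays. In the data the median SD within duplicates was 0.107 in SCI-EtOH, 0.088 in SCI-MP, 0.075 in S-MP and 0.055 in S-EtOH. The simulated rates need not hold for the injury comparisons. With 2 arrays per group and time, the precision rests on the spread shared by all groups. The members and gene lists were chosen with earlier results of these data known. Beside the 7 genes, at most the 3 largest called genes per list are named, and the 3 genes of the highest correlation with each. Alternatives were quantile normalisation, array medians at 0, array weights, no CV filter, the most variable probe set, a replicate block, leaving out arrays or times, another sham group, the 0 h difference and another marker list.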

Additional observations from a re-analysis of the deposited data

Results flagged for a closer look

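By a test of the difference between times, the injury difference was called larger late than early for 6 of the 7 genes with MP. Without MP it was called for all 7. Of all genes, 8.87% were called lower with MP and 14.8% without MP. With MP the difference at 24 and 48 h minus that at 2, 4 and 6 h was -1.55 for Scn1a, -0.67 for Scn2a, -0.83 for Scn8a, -0.91 for Scn2b, -0.51 for Scn3b and -1.06 for Scn4b. Without MP it was -2.04 for Scn1a, -0.95 for Scn2a, -0.81 for Scn3a, -1.41 for Scn8a, -1.23 for Scn2b, -0.65 for Scn3b and -2.05 for Scn4b. Under quantile normalisation 1 gene in place of 6 was called with MP, and Scn8a and Scn4b turned to 0.20 and 0.091. Without MP, Scn8a lost its call under quantile normalisation (-0.38).

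The injury difference itself was called larger with MP than without it for 2 of the 7 genes. This is near the share of all genes, of which 20.2% had an interaction called lower. The interaction was -0.39 for Scn2a and -0.30 for Scn3a. In sham cord, S-MP minus S-EtOH was 0.20 for Scn2a and 0.17 for Scn3a, which enters these values. Both calls were lost without both SCI-EtOH 6 h arrays and without the 4, 6, 12 or 48 h arrays. No group had the 4 arrays needed to look for a single outlying array.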

How the results depend on the processing

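Counts of called subunit genes are given here. In every alternative run, the 7 genes lower over the mean of 7 times with MP, the 3 lower and 4 higher relative to the neuron markers with and without MP, and the order of the genes (7 of 12 neighbouring pairs told apart) kept their counts within 1.5 times; without MP the count of 7 did too, where Scn3a was the only gene to lose its call. Without MP late minus early, Scn8a lost its call under quantile normalisation (-0.38, adjusted p = 0.21).

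Quantile normalisation gave 1 gene in place of 6 for injury with MP late minus early, with Scn8a at 0.20 and Scn4b at 0.091, 3 in place of 0 for MP in sham cord over the mean and 4 at single times, 1 in place of 0 for time in sham cord, and 2 in place of 5 (3 higher and 2 lower) for MP in injured cord at single times, both lower, with Scn4b at -0.087 at 8 h. It forces 1 distribution on arrays whose spread differed. Array weights gave 3 for MP in sham cord over the mean and 2 at single times, 3 for MP in injured cord at single times and 1 for time in sham cord. The interaction fell to 1 gene with array medians at 0 or the most variable probe set, and to 0 without both SCI-EtOH 6 h arrays or without the 4, 6, 12 or 48 h arrays. MP in injured cord over the mean gave 2 genes, both higher, without both SCI-EtOH 6 h arrays or without 6 h, 2 lower without 8 h, 1 higher without 12 h and 2 lower without 24 h. At single times it gave 0 with the 0 h difference added, which also brings in the spread of the 0 h arrays. A fit of each time alone called 1 gene at 0 h, Scn2b. The methods' own test gave 17 pairs in place of 34 without MP, 17 in place of 37 with MP, 5 for MP in injured cord (2 higher, 3 lower) and 1 for MP in sham cord. The cause of these changes was not tested.

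Leaving out each array gave 0 to 2 genes for MP in injured cord over the mean, 0 to 1 for its late minus early, 3 to 11 at its single times, 1 to 2 for the interaction, 4 to 7 for injury with MP late minus early, 31 to 36 pairs for injury without MP and 35 to 38 with MP. The count of 11 came without SCI-MP 24 h replicate 1, 7 came without SCI-MP 24 h replicate 2 or SCI-EtOH 6 h replicate 1, and 3 without SCI-EtOH 8 h replicate 1 or SCI-MP 8 h replicate 1. Duplicates of the same number in the labels did not deviate together (r between -0.574 and 0.431 over 43 pairs of groups, 11 above 0.1), so the numbers pair no arrays. Even so, a replicate block within times moved no count of calls, for example 7 genes for injury over the mean without MP and 34 pairs at single times.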

Other observations

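Partners of the channels were also compared between MP and ethanol, with no test against the subunit genes. In injured cord MP lowered 2 of the 4 intracellular FGF genes over the mean of 7 times (median of the 4 -0.14) and 2 of the 8 genes of the initial segment and node, of which 1 was higher (median -0.08), while 31.7% of all genes were called lower and 10.4% higher. The interaction was called lower for 2 of the 4 intracellular FGF genes, 2 of the 8 genes of the initial segment and node and for Nalcn (-0.36), where 20.2% of all genes were called lower. Nalcn was also higher in sham cord with MP (0.24).

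Markers of other cells in injured cord without MP were called as follows, where 27.5% of all genes were called lower and 35.1% higher. Lower were 11 of 12 synaptic vesicle genes (median -1.56), 5 of 5 motor neuron genes (-1.55), 6 of 6 astrocyte genes (-0.59) and 4 of 6 oligodendrocyte genes (-0.21, with 1 higher). Sensory neuron genes gave 2 lower and 1 higher of 4 (-0.09), and oligodendrocyte precursor genes 2 lower and 2 higher of 4 (-0.10). Higher were 3 of 4 Schwann cell genes (0.50), 3 of 3 endothelial genes (0.70), 5 of 7 neutrophil genes (1.26), 3 of 3 erythrocyte genes (1.47) and 1 of 6 microglia genes (median -0.01).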
